A study of Rattus norvegicus with 10 samples.

Results

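Glycolysis, lactate and glucose transport were followed through 32 listed genes in the rat left ventricle after GATA-4 gene transfer, out of 10688 genes tested. The 32 genes were taken by symbol and cover the glucose and lactate transporters, the enzymes from hexokinase to lactate dehydrogenase, the enzymes that set fructose 2,6-bisphosphate, the pyruvate dehydrogenase complex with its kinases, and the glycerol 3-phosphate dehydrogenases. A gene was read by its brightest probe set that is annotated to it alone. By that rule 30 of the 32 were matched and 29 were bright enough to be tested. Pfkfb1 lay below the filter on low signal, Gapdh was represented alone only by the array's control probe sets, and the Pkm probe set was also annotated to Pkm-ps20, so no value is given for Pkm. The samples were 5 left ventricles of male Sprague-Dawley rats weighing 250-300 g, collected 3 days after the GATA-4 gene was transferred, and 5 collected 3 days after transfer of LacZ, the bacterial beta-galactosidase gene that serves as the control. Each sample was hybridised to 1 Affymetrix rat expression array. Groups were taken from the source labels, since the titles name all 10 samples alike. Not given in the sources used here are the vector, its dose, the animals' age and the cells reached. The labels do not name the animals, so the p-values measure the spread between these samples.

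Glycolysis splits glucose into pyruvate in the cytosol, and lactate dehydrogenase interconverts pyruvate and lactate. The adult heart draws most of its energy from fatty acids, and it burns glucose and lactate through the pyruvate dehydrogenase complex, which the pyruvate dehydrogenase kinases switch off. Most steps have a form that prevails in striated muscle (Slc2a4, Hk2, Pfkm, Aldoa, Pgam2, Eno3) and another that prevails in brain, liver, blood or dividing cells (Slc2a1, Hk1, Pfkp, Pfkl, Aldoc, Pgam1, Eno1, Eno2).

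The promoters of 4 genes described below are shown because they carry one or the other of a pair of short motifs, the binding hexamer of GATA factors in Eno3 and the core of the hypoxia response element in Slc2a1, Aldoc and Pgam1. Each sequence is the RefSeq window of 300 bases, 250 before to 50 after the gene's start, in build GRCr8. It is written 5′ to 3′ along the gene's strand, with a match to either motif on either strand in capitals. The matches begin 51 bases before the start in Slc2a1, 31 in Aldoc, 141 in Pgam1, and 111 and 41 in Eno3. The windows of Slc2a1, Aldoc, Pgam1 and Eno3 lie, in that order, at chr5:138002272-138002571 (plus strand), chr10:63715294-63715593 (plus strand), chr1:250672902-250673201 (plus strand) and chr10:55868936-55869235 (plus strand).
Slc2a1: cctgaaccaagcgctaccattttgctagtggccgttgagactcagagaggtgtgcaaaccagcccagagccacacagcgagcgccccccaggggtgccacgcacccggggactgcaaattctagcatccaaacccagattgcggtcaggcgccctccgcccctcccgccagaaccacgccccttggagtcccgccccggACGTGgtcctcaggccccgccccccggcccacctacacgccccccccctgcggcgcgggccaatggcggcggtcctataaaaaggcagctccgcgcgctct
Aldoc: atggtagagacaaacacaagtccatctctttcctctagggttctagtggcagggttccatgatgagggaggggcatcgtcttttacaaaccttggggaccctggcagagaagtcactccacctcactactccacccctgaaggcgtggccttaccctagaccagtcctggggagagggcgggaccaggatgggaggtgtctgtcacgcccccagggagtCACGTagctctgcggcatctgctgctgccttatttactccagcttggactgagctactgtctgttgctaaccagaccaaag
Pgam1: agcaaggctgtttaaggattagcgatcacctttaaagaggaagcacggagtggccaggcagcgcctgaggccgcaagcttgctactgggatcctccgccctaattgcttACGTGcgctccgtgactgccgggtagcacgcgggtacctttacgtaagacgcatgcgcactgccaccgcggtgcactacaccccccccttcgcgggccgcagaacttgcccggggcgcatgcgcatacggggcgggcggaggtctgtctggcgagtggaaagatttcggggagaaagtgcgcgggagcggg
Eno3: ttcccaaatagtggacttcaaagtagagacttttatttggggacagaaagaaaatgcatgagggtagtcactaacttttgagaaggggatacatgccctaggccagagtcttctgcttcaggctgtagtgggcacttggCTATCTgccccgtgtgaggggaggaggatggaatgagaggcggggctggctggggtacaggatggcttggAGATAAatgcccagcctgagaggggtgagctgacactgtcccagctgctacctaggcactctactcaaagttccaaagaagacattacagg

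The GATA hexamer was searched on both strands as AGATAA, with T also allowed as its first letter and G as its last. Windows were found for 29 of the 32 genes, all but Slc2a4, Pgk1 and Gpd1, and where a gene had several the first listed was used. These 29 are not the 29 tested genes, since they include Gapdh, Pkm and Pfkfb1. A hexamer occurred in 6 of the 29, those of Hk1, Hk2, Pfkm, Eno3, Pkm and Pfkfb1, against 30.3% of all 33469 windows in the table. The hypoxia core ACGTG, on both strands, occurred in 13 of the 29, against 19.3% of all windows. Among the genes that rose or fell, Eno3 held a GATA hexamer, and Slc2a1, Aldoc, Pgam1, Pdk1 and Pdhb held ACGTG. Gpd1, which rose, had no window and was not searched. A match is a description of the letters in the window and shows neither binding nor a role in these hearts.

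Signal values are log2 intensities, quantile normalized over the 10 arrays, and all differences are GATA-4 minus LacZ on that scale. A gene is said to have risen or fallen where limma's p-value, adjusted by the Benjamini-Hochberg method over 18625 probe sets, was under 0.05. As a check of the labels, Gata4 stood at 11.28 to 11.59 on GATA-4 arrays and at 10.49 to 10.82 on LacZ arrays, with no overlap. GATA-4 array 1 was dimmer than the rest before normalization, with a 2%-trimmed mean signal of 142.3 against 249.5 to 328.7 on GATA-4 arrays 2 to 5 and 249.2 to 313.6 on LacZ arrays. It gave the highest value of its group in 15 of the 29 genes tested and the lowest in 5. The same count was not made over all genes. Where leaving it out changed the call of a listed gene, the values with and without it are given. The sample numbers of GATA-4 arrays 4 and 5 do not follow on from those of the remaining 8 arrays, and the labels name no batch.

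After GATA-4 transfer 5 of the 29 tested genes rose and 4 fell. The rises were those of Aldoc (4.52-fold), Gpd1 (1.72-fold), Pfkp (1.51-fold), Slc2a1 (1.48-fold) and Pgam1 (1.17-fold). Eno3 fell to 0.692 of its LacZ level, Pdk1 to 0.782, Pdhb to 0.835 and Pdha1 to 0.896. Together 31.0% of the tested genes were called, where 6.37% of all 10688 genes tested were called, 3.71% as higher and 2.66% as lower. The list's median difference was -0.02, as was that of all genes tested (-0.02), and 14 of its members had positive and 15 negative differences. The groups did not overlap in 10 of the 29 genes, the 9 called ones and Pfkfb2, where 9.66% of all genes tested did not overlap. Without GATA-4 array 1 the list had 7 genes higher and 9 lower, while 18.8% of all genes tested were then called. On the same arrays 8 of 12 macrophage markers rose, and their part in these differences was not tested.

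**Figure D1:**
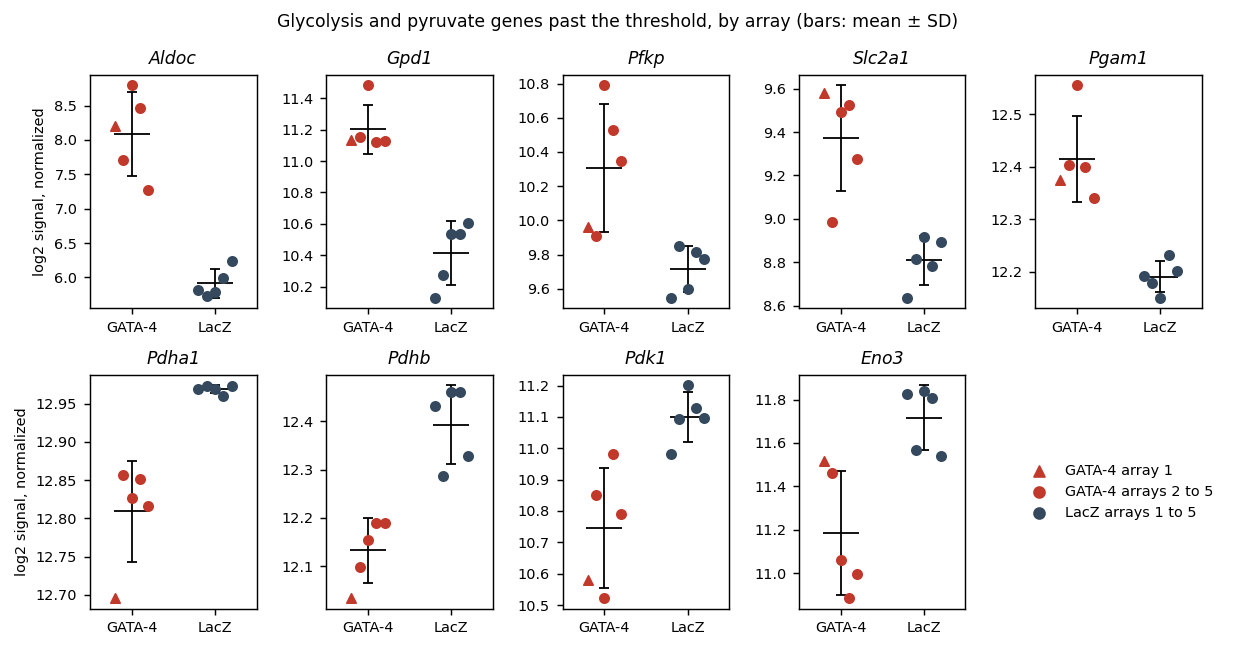
Normalized log2 signal of the 9 called genes on each array, GATA-4 arrays left (red, array 1 as a triangle) and LacZ arrays right (dark), with bars for the mean and SD of 5 arrays. The groups do not overlap in any of the 9 panels, and the axis of each panel is its own.

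These calls depended on which arrays were used and on the processing. Aldoc kept its call in each of the 10 fits that left out 1 array, and so did Gpd1. The other 7 lost it in 3 to 9 of those fits, as given with each gene. With the signals as deposited, not normalized, only Aldoc passed, and with median centring in place of quantile normalization Pfkp, Pgam1 and Pdha1 did not pass. Without GATA-4 arrays 4 and 5 together, Aldoc and Gpd1 passed.

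**Figure D2:**
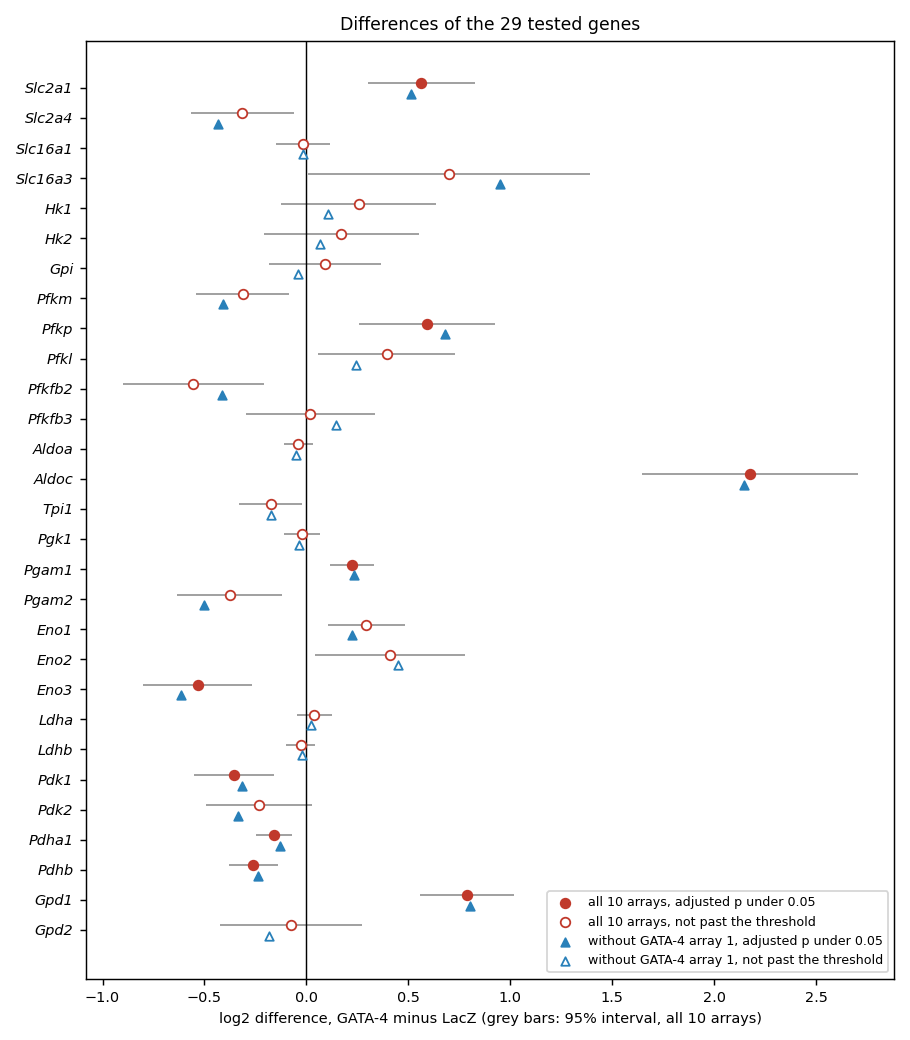
Log2 difference, GATA-4 minus LacZ, of the 29 tested genes in the order transport, upper steps, lower steps, lactate, pyruvate and glycerol phosphate. Circles are the fit on all 10 arrays with 95% intervals, triangles the fit without GATA-4 array 1, and filled symbols mark an adjusted p under 0.05. Aldoc, at 2.17, lies farthest from 0.

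Among the transporters, Slc2a1, which encodes the widely expressed glucose transporter GLUT1, rose. Its signal was 9.58, 8.99, 9.49, 9.53 and 9.28 on GATA-4 arrays 1 to 5 and 8.64, 8.81, 8.92, 8.78 and 8.89 on LacZ arrays 1 to 5. All GATA-4 values lay above all LacZ values, GATA-4 array 2 by the narrowest margin. The difference was 0.56 (SE 0.12) with a limma adjusted p of 0.0238. The call was lost without GATA-4 array 3 or 4 or without LacZ array 1, 3, 4 or 5, with adjusted p-values of 0.0517 to 0.0633 and differences of 0.52 to 0.59.

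Slc2a4 encodes GLUT4, the insulin-responsive glucose transporter of muscle and fat. Its signal was 12.16, 11.66, 11.36, 11.63 and 11.57 on GATA-4 arrays and 11.89, 12.02, 12.02, 12.13 and 11.89 on LacZ arrays. GATA-4 arrays 2 to 5 lay below all LacZ arrays and GATA-4 array 1 above them all. The difference of -0.31 (SE 0.12) had an adjusted p of 0.138 in limma, and without array 1 it was -0.43 with an adjusted p of 0.00265. A second, dimmer Slc2a4 probe set differed by -0.21 with an adjusted p of 0.543.

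The lactate carriers did not pass. Slc16a3, the lactate exporter MCT4 of glycolytic cells, had signals of 6.05, 7.44, 7.91, 6.61 and 7.26 on GATA-4 arrays and 6.60, 6.59, 5.88, 5.85 and 6.86 on LacZ arrays, which overlap. Its difference was 0.70 (SE 0.32, limma adjusted p = 0.221), and 0.95 with an adjusted p of 0.0303 without GATA-4 array 1, the lowest of its group. Slc16a1, the monocarboxylate transporter MCT1, differed by -0.02 with a 95% interval of -0.15 to 0.12.

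The first committed steps carried 1 call, that of Pfkp. Pfkp is the platelet form of phosphofructokinase, which commits fructose 6-phosphate to glycolysis. It stood at 9.96, 9.91, 10.79, 10.53 and 10.35 on GATA-4 arrays and at 9.55, 9.85, 9.60, 9.81 and 9.78 on LacZ arrays. The groups were apart, with GATA-4 arrays 1 and 2 close to the highest LacZ array. The rise was 0.59 (SE 0.16, limma adjusted p = 0.0455), and the call was lost without GATA-4 array 3, 4 or 5 or without any 1 of the LacZ arrays, where adjusted p-values were 0.0661 to 0.125 and differences 0.47 to 0.63.

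Pfkm, the muscle form of phosphofructokinase, read 12.09, 11.46, 11.53, 11.68 and 11.72 on GATA-4 arrays and 11.91, 11.96, 12.07, 12.19 and 11.91 on LacZ arrays. Only GATA-4 array 1 reached the LacZ values. The difference was -0.31 (SE 0.11, limma adjusted p = 0.105), and without array 1 it was -0.41 with an adjusted p of 0.00394. A second tested Pfkm probe set differed by -0.10 with an adjusted p of 0.848. Pfkl, the liver form, read 9.13, 8.48, 8.48, 8.29 and 8.25 on GATA-4 arrays and 8.34, 8.15, 8.10, 8.06 and 8.03 on LacZ arrays, a difference of 0.39 (SE 0.15) with an adjusted p of 0.158, and of 0.24 (adjusted p = 0.113) without GATA-4 array 1. GATA-4 array 1 was the highest, and LacZ array 1 reached into the GATA-4 range.

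Hexokinase traps glucose in the cell as glucose 6-phosphate. Hk1 averaged 10.81 ± 0.42 on GATA-4 arrays and 10.56 ± 0.21 on LacZ arrays, and Hk2, the insulin-responsive form, 6.62 ± 0.35 on GATA-4 arrays and 6.45 ± 0.20 on LacZ ones (SD, n = 5 each). Neither difference, 0.26 for Hk1 and 0.17 for Hk2, passed the threshold (limma adjusted p = 0.42 and 0.612). Both were highest on GATA-4 array 1, without which the differences were 0.11 for Hk1 and 0.07 for Hk2. Gpi, which isomerises glucose 6-phosphate, was also highest there and differed by 0.09 (SE 0.13).

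Pfkfb2 and Pfkfb3 make and break fructose 2,6-bisphosphate, the main activator of phosphofructokinase. Pfkfb2, the form known from heart, read 7.07, 7.88, 7.67, 7.76 and 7.82 on GATA-4 arrays and 8.09, 7.99, 8.48, 8.31 and 8.09 on LacZ arrays, with no overlap. The difference of -0.56 (SE 0.16) missed the threshold with a limma adjusted p of 0.0633, and without GATA-4 array 1, the lowest of its group, it was -0.41 with an adjusted p of 0.0274. Dimmer Pfkfb2 probe sets that were tested overlapped between the groups and differed by -0.16 (adjusted p = 0.638) and -0.26 (adjusted p = 0.59). Pfkfb3, the inducible form, read 7.66, 8.09, 8.50, 8.36 and 8.16 on GATA-4 arrays and 8.11, 8.32, 8.10, 8.01 and 8.11 on LacZ arrays, a difference of 0.02 (SE 0.15). A second tested, dimmer Pfkfb3 probe set differed by -0.36 (limma adjusted p = 0.38). Pfkfb1 averaged 4.56 ± 0.72 on GATA-4 arrays and 4.50 ± 0.65 on LacZ ones (SD, n = 5 each) and was not tested.

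Aldolase splits the sugar diphosphate into trioses, and its brain form Aldoc had the widest difference of the 29 genes. Aldoc read 8.20, 7.71, 8.80, 8.47 and 7.27 on GATA-4 arrays 1 to 5. On LacZ arrays 1 to 5 it read 5.81, 5.73, 5.78, 6.00 and 6.25. The lowest GATA-4 value lay above the highest LacZ value by more than the whole LacZ range. The rise of 2.17 (SE 0.24) had a limma adjusted p of 0.00177, and it ran from 1.99 to 2.38 with single arrays left out. The LacZ mean of 5.91 lay close to the filter limit of 5.17, so the fold depends on the background.

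Aldoa, the muscle aldolase, read 13.53, 13.47, 13.45, 13.49 and 13.44 on GATA-4 arrays and 13.56, 13.49, 13.50, 13.53 and 13.50 on LacZ arrays. Its difference was -0.04 with a 95% interval of -0.11 to 0.03. Tpi1, which interconverts the trioses, differed by -0.17 (SE 0.07) and missed the threshold with a limma adjusted p of 0.173. Aldoa, Tpi1, Pgk1, Ldha, Ldhb and Pdha1 had mean signals above 12.47, within 1.5 of the top of the array's range at 13.97.

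In the lower steps of the pathway the differences of the mutases and enolases had opposite signs by form. Pgam1, the widely expressed phosphoglycerate mutase, read 12.38, 12.40, 12.55, 12.40 and 12.34 on GATA-4 arrays and 12.19, 12.18, 12.15, 12.23 and 12.20 on LacZ arrays. It rose in all 5 GATA-4 arrays relative to every LacZ array, by 0.22 (SE 0.05, limma adjusted p = 0.0267). The call was lost without GATA-4 array 3 or 4 or any 1 of the LacZ arrays, with adjusted p-values of 0.0506 to 0.0866 and differences of 0.19 to 0.23.

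Pgam2, the muscle mutase, read 12.16, 11.54, 11.47, 11.48 and 11.57 on GATA-4 arrays and 12.11, 11.82, 12.02, 12.06 and 12.10 on LacZ arrays. GATA-4 arrays 2 to 5 were below all LacZ arrays and array 1 above all of them. The difference of -0.38 (SE 0.12) had a limma adjusted p of 0.0852, and without array 1 it was -0.50 with an adjusted p of 0.000885.

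Eno3, the muscle enolase, fell. It read 11.52, 11.46, 11.06, 10.88 and 11.00 on GATA-4 arrays and 11.83, 11.57, 11.84, 11.81 and 11.54 on LacZ arrays, without overlap but with GATA-4 array 1 next to the lowest LacZ array. The difference was -0.53 (SE 0.12, limma adjusted p = 0.0294). The call was lost without GATA-4 array 3, 4 or 5 or LacZ array 1, 3, 4 or 5, with adjusted p-values of 0.051 to 0.0929 and differences of -0.58 to -0.46.

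Eno1, the widely expressed enolase, read 12.59, 12.08, 12.36, 12.32 and 12.19 on GATA-4 arrays and 11.93, 12.04, 12.00, 12.19 and 11.91 on LacZ arrays, where 1 LacZ array reached into the GATA-4 range. Its difference was 0.29 (SE 0.09, limma adjusted p = 0.0705), and 0.22 with an adjusted p of 0.0475 without GATA-4 array 1, the highest of its group. Eno2, the neuronal enolase, read 7.65, 8.31, 8.02, 7.32 and 7.67 on GATA-4 arrays and 7.45, 7.35, 7.18, 7.60 and 7.33 on LacZ arrays, a difference of 0.41 (SE 0.17) that did not pass (adjusted p = 0.177). Pgk1, an ATP-forming kinase, differed by -0.02 with a 95% interval of -0.11 to 0.07. Gapdh was read from its control probe set nearest the 3' end, which was placed on the normalized scale and averaged 13.46 ± 0.03 on GATA-4 arrays and 13.44 ± 0.06 on LacZ ones (SD, n = 5 each; exact two-sided permutation p = 0.476). Its middle and 5' control probe sets spread more widely. They read 12.58 to 13.26 and 12.19 to 13.08 on GATA-4 arrays, and 12.51 to 13.09 and 12.05 to 13.16 on LacZ arrays. Both were highest on GATA-4 array 1 within that group and on LacZ array 4 within the other. The bearing of this spread on the calls was not tested.

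The lactate dehydrogenase subunits had small differences. Ldha, the M subunit that prevails in skeletal muscle, averaged 12.97 ± 0.05 on GATA-4 arrays and 12.93 ± 0.03 on LacZ arrays. Ldhb, the H subunit that prevails in heart, averaged 13.58 ± 0.04 on GATA-4 arrays and 13.61 ± 0.02 with LacZ (SD, n = 5 each). The 95% intervals of their differences were -0.05 to 0.12 for Ldha and -0.10 to 0.04 for Ldhb. The Ldha difference was 0.04, and -0.04 with the signals as deposited or with median centring.

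At the entry of pyruvate into mitochondrial oxidation 3 genes fell. Pdhb, the beta subunit of pyruvate dehydrogenase, read 12.03, 12.10, 12.16, 12.19 and 12.19 on GATA-4 arrays and 12.43, 12.29, 12.46, 12.46 and 12.33 on LacZ arrays, and all GATA-4 arrays lay below all LacZ arrays. The difference was -0.26 (SE 0.06, limma adjusted p = 0.022). It missed the threshold without LacZ array 1, 3 or 4, with adjusted p-values of 0.0556 to 0.0755 and differences of -0.25 to -0.24.

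Pdha1, the alpha subunit, read 12.70, 12.86, 12.83, 12.85 and 12.82 on GATA-4 arrays and 12.97, 12.97, 12.97, 12.96 and 12.97 on LacZ arrays. The groups were apart, with the LacZ arrays close together. The difference of -0.16 (SE 0.04, limma adjusted p = 0.0455) was lost in 9 of the 10 fits that left out 1 array, all but that without GATA-4 array 1, with adjusted p-values of 0.0523 to 0.123 and differences of -0.17 to -0.16. A second Pdha1 probe set differed by -0.04 (adjusted p = 0.89), and the mean over both did not pass.

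Pdk1, a kinase that switches the complex off, read 10.58, 10.85, 10.52, 10.98 and 10.79 on GATA-4 arrays and 10.98, 11.09, 11.20, 11.13 and 11.10 on LacZ arrays. All GATA-4 arrays lay below all LacZ arrays, GATA-4 array 4 by almost nothing. The difference was -0.355 (SE 0.09, limma adjusted p = 0.0437). The call was lost without GATA-4 array 2, 3 or 5 or any 1 of the LacZ arrays, with adjusted p-values of 0.0504 to 0.128 and differences of -0.38 to -0.30. A second Pdk1 probe set differed by -0.48 with an adjusted p of 0.0719. Pdk2, the related kinase, differed by -0.23 (SE 0.12, adjusted p = 0.281), and by -0.33 with an adjusted p of 0.0274 without GATA-4 array 1.

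Gpd1, the cytosolic glycerol 3-phosphate dehydrogenase that draws triose phosphate from glycolysis and reoxidises NADH, rose. It read 11.13, 11.15, 11.48, 11.12 and 11.13 on GATA-4 arrays and 10.13, 10.28, 10.54, 10.53 and 10.61 on LacZ arrays. The lowest GATA-4 array lay well above the highest LacZ array. The difference was 0.79 (SE 0.11, limma adjusted p = 0.00475). Its mitochondrial partner Gpd2 read 8.09, 7.58, 7.37, 7.85 and 7.45 on GATA-4 arrays and 7.99, 8.01, 7.57, 7.48 and 7.68 on LacZ arrays, a difference of -0.08 (SE 0.16). A second, dimmer Gpd1 probe set differed by 0.51 with an adjusted p of 0.305.

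**Figure D3:**
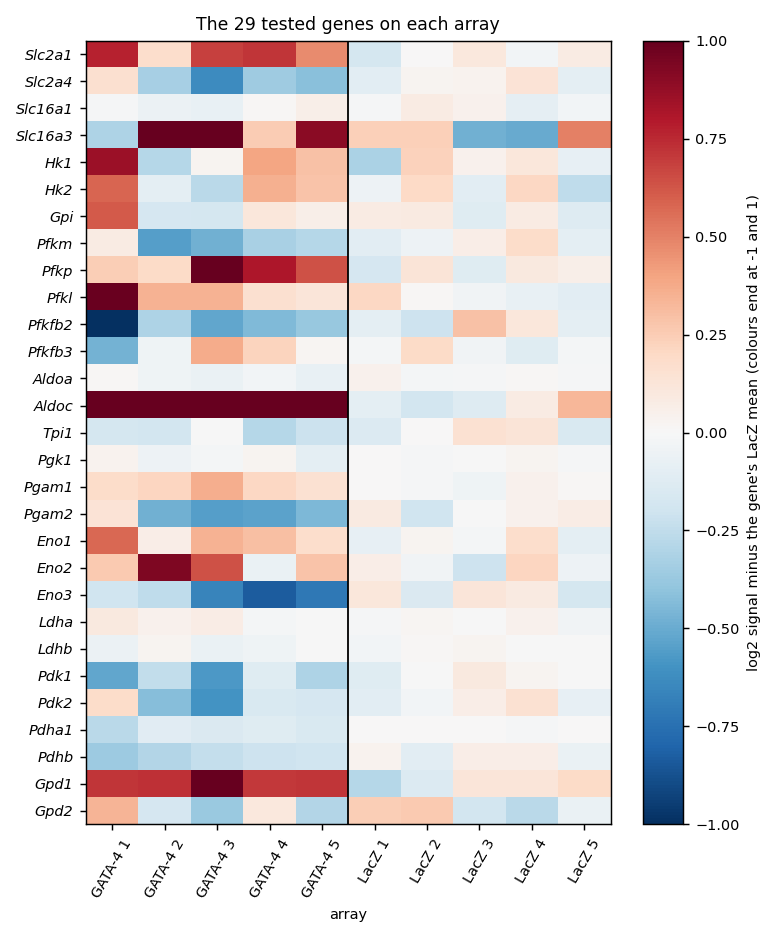
Each of the 29 tested genes (rows) on each array (columns, GATA-4 arrays 1 to 5 left of the line and LacZ arrays right), as log2 signal minus the gene's LacZ mean. Red is higher and blue lower, and colours end at -1 and 1, a limit that Aldoc exceeds on all 5 GATA-4 arrays. GATA-4 array 1 is red for Slc2a4 and Pgam2, where the other GATA-4 arrays are blue.

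To ask whether non-muscle and muscle forms of a step changed unequally, 13 pairs were compared by the difference of their log2 signals within each array. In most pairs the first gene is the widely expressed or non-muscle form and the second the form known from heart or striated muscle. In the lactate pairs the second gene is the form known from heart, and Ldha and Slc16a3 also prevail in glycolytic skeletal muscle. The pair of pyruvate dehydrogenase kinases and the pair of glycerol phosphate dehydrogenases are not muscle and non-muscle forms. A difference between groups shows unequal change and says nothing of which form is more abundant. Each was tested by exact permutation, two-sided, over all 252 ways to assign 5 and 5 arrays, with 0.00794 the smallest p possible, adjusted by Benjamini-Hochberg over the 13 pairs. The pairs were chosen with earlier results known, and Pfkm and Eno3 each stand in 2 pairs, so the tests are not independent. The called genes Aldoc, Gpd1, Pfkp, Slc2a1, Pgam1, Eno3 and Pdk1 also stand in these pairs. The pair tests thus reuse their values and give those calls no separate support. No other gene pairs were tested for comparison.

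The unequal change passed in 9 of the 13 pairs, each time with the first gene higher relative to its partner in the GATA-4 arrays. Among the 5 pairs whose groups did not overlap, Aldoc against Aldoa differed by 2.21 (SE 0.28), where Aldoa lay near the top of the array's range and Aldoc near the filter limit on LacZ arrays. The others were Eno2 against Eno3 at 0.94 (SE 0.17), Slc2a1 against Slc2a4 at 0.88 (SE 0.16), Eno1 against Eno3 at 0.83 (SE 0.16) and Pfkl against Pfkm at 0.71 (SE 0.14). In those 5 pairs all GATA-4 arrays lay above all LacZ arrays (exact p = 0.00794, adjusted p = 0.0206 for each). Pfkp against Pfkm, at 0.90 (SE 0.24), Gpd1 against Gpd2, at 0.86 (SE 0.27), Pgam1 against Pgam2, at 0.60 (SE 0.16), and Pfkfb3 against Pfkfb2, at 0.58 (SE 0.17), each had an exact p of 0.0159 and an adjusted p of 0.023.

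The 4 other pairs did not pass. Hk1 against Hk2 differed by 0.09 (SE 0.12, exact permutation p = 0.476), Ldha against Ldhb by 0.07 (SE 0.04, exact p = 0.111) and Slc16a3 against Slc16a1 by 0.72 (SE 0.39, exact p = 0.111). Pdk1 against Pdk2 differed by -0.12 (SE 0.16, exact p = 0.595), the only negative value. Their adjusted p-values were 0.131 to 0.595. The count stayed at 9 in each of the 10 comparisons that left out 1 array, GATA-4 array 1 included, and in the signals as deposited, where the brightness of an array cancels within a pair. It was 5 without GATA-4 arrays 4 and 5, where the pairs of Pfkp, Pgam1, Pfkfb3 and Gpd1 did not pass, and 5 when the mean over a gene's probe sets replaced the brightest, where those of Pfkl, Pfkp, Pfkfb3 and Gpd1 did not.

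Read by class, the 13 first genes had 12 positive differences (Ldha turned negative with median centring or the signals as deposited, and Pfkfb3 at 0.02 in 5 alternatives) and a median of 0.39, with 5 called higher and Pdk1 called lower. The 11 second genes had 10 negative differences and a median of -0.23, with Eno3 the only call, and Hk2 was the positive one. Without GATA-4 array 1 the first genes held 7 calls higher and 1 lower, and the second genes 6 lower: Slc2a4, Pfkm, Pgam2, Eno3, Pdk2 and Pfkfb2. Dimmer tested probe sets of Slc2a4, Pfkm, Pdk2 and Pfkfb2 had negative differences that were not called in that fit. Their limma adjusted p-values were 0.176 for Slc2a4, 0.477 for Pfkm, 0.564 for Pdk2, and 0.514 and 0.24 for Pfkfb2. In that fit 18.8% of all genes tested were called, against 6.37% with all 10 arrays. These counts describe the chosen genes and were not tested as classes.

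**Figure D4:**
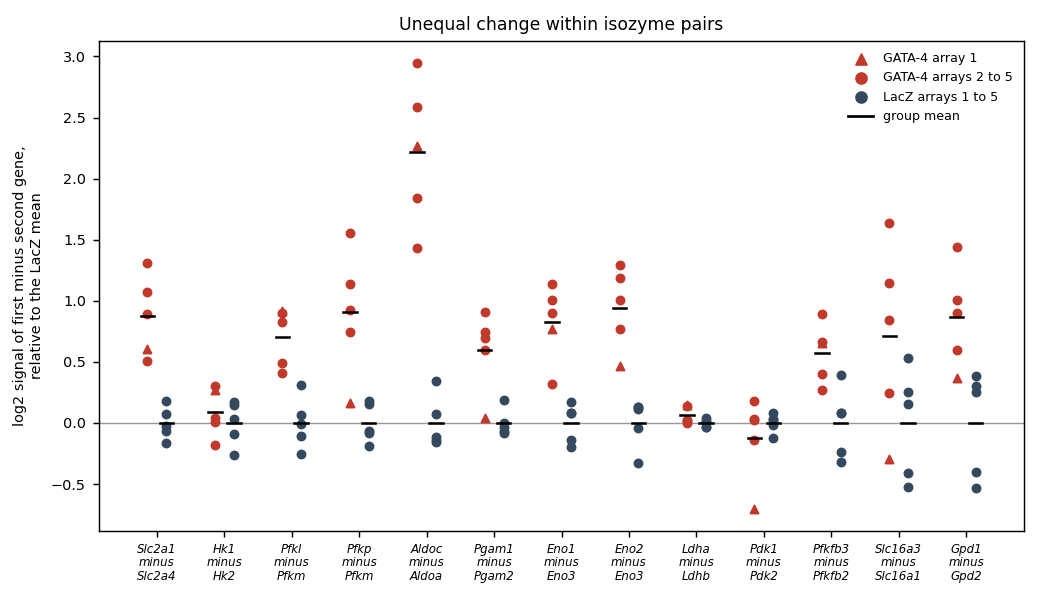
For 13 pairs of genes, the log2 signal of the first minus that of the second on each array, shown relative to the pair's LacZ mean, with GATA-4 arrays in red (array 1 as a triangle) left of LacZ arrays in dark and a line at each group's mean. The GATA-4 mean is above 0 in 12 pairs and below it for Pdk1 minus Pdk2.

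Neighbouring branches of glucose use were read from 5 lists of 95 genes, 83 of them matched and 73 tested. Of these 73 genes 3 rose and 6 fell, or 12.3%, where 6.37% of all genes tested were called. In the fit without GATA-4 array 1, 9 were called higher and 12 lower, where 18.8% of all genes were called. With median centring 1 was higher and 6 lower, and the Pgd difference (adjusted p = 0.0533), the Taldo1 difference (adjusted p = 0.197) and the Mpc1 difference (adjusted p = 0.141) were not called. The 3 rises were all enzymes of the pentose phosphate pathway, which makes NADPH and ribose from glucose 6-phosphate, in a list of 14 genes that also holds the hexosamine branch and of which 10 were tested (median 0.05). Tkt, transketolase, read 10.04, 10.24, 10.15, 9.83 and 9.91 on GATA-4 arrays and 9.48, 9.52, 9.25, 9.51 and 9.28 on LacZ arrays. It rose 1.54-fold (limma adjusted p = 0.00902) without overlap and kept its call whichever array was left out.

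Pgd, which makes NADPH by oxidising 6-phosphogluconate, rose 1.43-fold (limma adjusted p = 0.0188) and Taldo1, transaldolase, 1.30-fold (adjusted p = 0.0424). Pgd read 9.47 to 9.75 on GATA-4 arrays and 8.89 to 9.25 on LacZ arrays, with no overlap. Taldo1 read 10.26 to 10.71 on GATA-4 arrays and 10.02 to 10.26 on LacZ arrays, which overlap narrowly at 10.26. Pgd missed the threshold without LacZ array 3 or 5 (adjusted p 0.0528 to 0.0681, differences 0.47). Taldo1 missed it without GATA-4 array 2, 3 or 4 or any 1 of the LacZ arrays (adjusted p 0.0583 to 0.123, differences 0.33 to 0.41).

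Of 9 tested genes of pyruvate entry into mitochondria 2 fell, with a median of -0.19. With GATA-4 array 1 left out the list had 1 higher, Pdk3, and 3 lower. Mpc1, a subunit of the mitochondrial pyruvate carrier, fell by 0.19 on the log2 scale (limma adjusted p = 0.0481) and Dld, the lipoamide dehydrogenase of the pyruvate dehydrogenase complex, fell by 0.28 (adjusted p = 0.0482). Leaving out 1 array cost Mpc1 its call in 8 of 10 fits, all but those without GATA-4 array 1 or LacZ array 4 (adjusted p 0.0544 to 0.128, differences -0.21 to -0.17). Dld lost it in 8, all but those without GATA-4 array 1 or 4 (adjusted p 0.0654 to 0.139, differences -0.30 to -0.25).

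Among 7 tested genes of the redox shuttles, which carry reducing equivalents from glycolysis into mitochondria, 1 fell, with a median of -0.18, and 3 were lower without GATA-4 array 1. Slc25a11, the oxoglutarate carrier, read 11.91, 11.91, 11.81, 11.87 and 11.87 on GATA-4 arrays and 12.17, 12.05, 12.20, 12.25 and 12.12 on LacZ arrays. It fell by 0.28 on the log2 scale (limma adjusted p = 0.014), with the groups apart, and missed the threshold only without LacZ array 3 (adjusted p = 0.057, difference -0.27).

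Of 30 tested genes of hypoxia and glucose sensing 3 fell, with a median of -0.01. The list had 4 higher and 4 lower without GATA-4 array 1. The 4 higher were Hif1a, Ndrg1, P4ha1 and Myc, of which Hif1a, a subunit of the hypoxia-inducible factor, differed by 0.41 (adjusted p = 0.00445) without that array and by 0.07 (adjusted p = 0.903) with it. Egln3, a prolyl hydroxylase that marks HIF proteins for destruction, fell by 0.33 on the log2 scale, Vegfa, an angiogenic factor and HIF target, fell by 0.37, and Klf15, a factor that promotes Slc2a4 transcription, fell by 0.48 (limma adjusted p = 0.0223, 0.0292 and 0.0278). Egln3 missed the threshold without GATA-4 array 5 or LacZ array 1, 3 or 4 (adjusted p 0.0501 to 0.0571, differences -0.36 to -0.29). Vegfa missed it without GATA-4 array 2, 3 or 5 or LacZ array 1, 3, 4 or 5 (adjusted p 0.0532 to 0.094, differences -0.39 to -0.32), and Klf15 without GATA-4 array 3 or 4 or LacZ array 1, 3, 4 or 5 (adjusted p 0.058 to 0.0892, differences -0.49 to -0.40). Vegfa and Klf15 were also not called when the mean over a gene's probe sets replaced the brightest. Of 17 tested genes of the remaining glycolysis and glucose entry list 0 passed in limma, with a median of 0.02. Of these 17, 2 had an unadjusted p under 0.05, and both are named here after their values were seen. Emb, which escorts lactate carriers to the membrane, differed by 0.70 (adjusted p = 0.056), and Ldhd, a lactate dehydrogenase for the D form, by -0.49 (adjusted p = 0.0704). Without GATA-4 array 1 the list had 1 higher, Emb, and 2 lower, Ldhd and Pgm1.

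**Figure D5:**
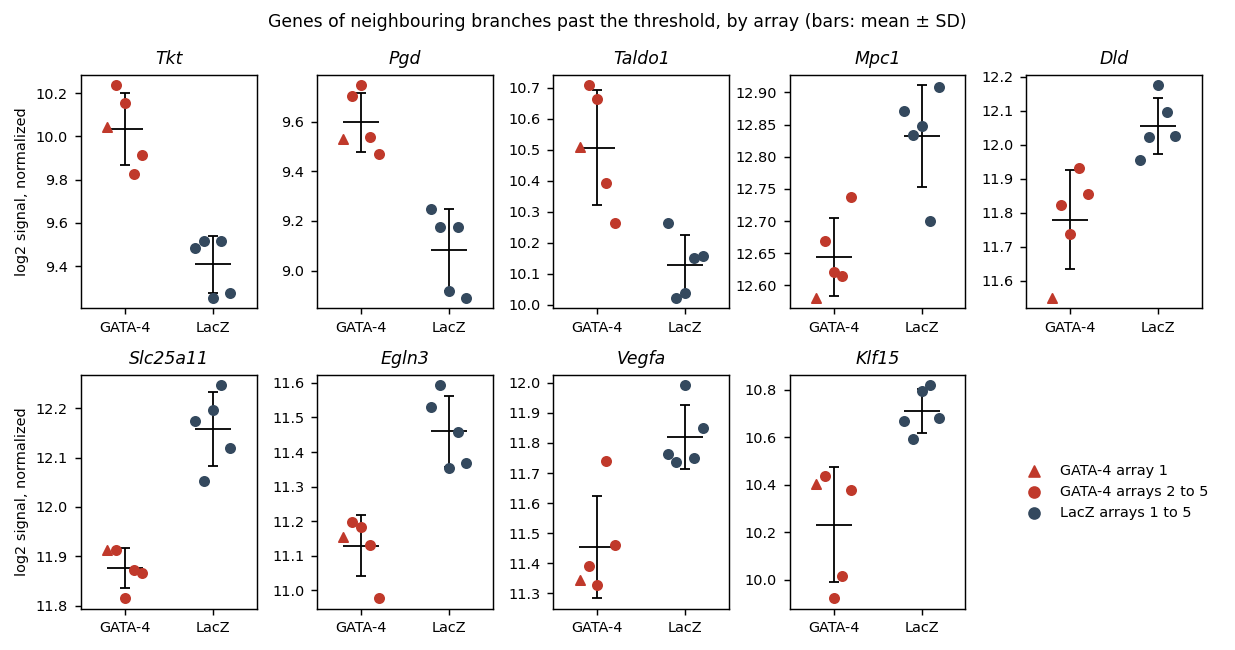
Normalized log2 signal of the 9 called genes of neighbouring branches on each array, GATA-4 left (red, array 1 as a triangle) and LacZ right (dark), with bars for mean and SD of 5 arrays; each panel has its own axis. Tkt, Pgd and Taldo1 are higher on GATA-4 arrays, and Mpc1, Dld, Slc25a11, Egln3, Vegfa and Klf15 lower, with overlap in the panels of Taldo1, Mpc1 and Vegfa.

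Some markers of other cell types differed between the groups. Of 12 macrophage and monocyte markers, all tested, 8 rose, where 3.71% of all genes tested were called higher. The summed signal of the 12 was 22690 to 26890 on GATA-4 arrays and 16130 to 18970 on LacZ arrays. Of 8 neutrophil markers 7 were matched, 4 tested and 2 rose, and the summed signal of the matched ones was 271.6 to 2455 on GATA-4 arrays, lowest on array 1, and 248.9 to 1009 on LacZ arrays. All 4 tested neutrophil markers and 9 of the 12 macrophage markers were called higher without GATA-4 array 1. In that fit 18.8% of all genes tested were called in either direction. Of 9 T and NK cell markers 8 were tested and 0 passed in limma, while 3 had an unadjusted p under 0.05, with a summed signal of 1073 to 1989 on GATA-4 arrays and 927.2 to 1272 on LacZ arrays. Of these 8, Cd8a, Gzma and Gzmb were called higher without GATA-4 array 1 (adjusted p = 0.0113, 0.0199 and 0.00622). Macrophages and neutrophils are known to use the non-muscle forms Slc2a1, Pfkp, Pgam1 and the pentose phosphate enzymes, and the part of these cells in those rises was not tested. The non-muscle forms Hk1 (0.26), Pfkl (0.39) and Eno1 (0.29) had positive differences that were not called (limma adjusted p = 0.42, 0.158 and 0.0705). Without GATA-4 array 1, Eno1 was called higher (adjusted p = 0.0475). The glucose transporter Slc2a3 differed by 0.10 (limma adjusted p = 0.779).

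Aldoc and Eno2 are forms known from neural cells. Of 9 Schwann cell and neuron markers 7 were matched and 3 tested: Uchl1 and Tubb3 rose and Sox10 differed by -0.09, while S100b, Nefl, Nefm and Gfap lay below the filter. The summed signal of the matched ones was 263.7 to 548.3 on GATA-4 arrays and 182.1 to 255.8 on LacZ arrays, and its part in the Aldoc rise was not tested. Heart muscle markers were bright on all 10 arrays: the 9 matched of 10 summed to 90530 to 93890 on GATA-4 arrays and to 92700 to 96270 on LacZ arrays, and Casq2 fell. Skeletal muscle markers summed to 11720 to 14750 on GATA-4 arrays and 14400 to 15580 on LacZ arrays. Nearly all of that sum came from Ckm (-0.10, limma adjusted p = 0.548) and the probe set annotated to Myh1, which fell. Whether that probe set also reads heart myosins was not tested. The other 4 of 6, Myh4, Myh2, Actn3 and Tnnt3, lay below the filter, so the sum does not show that skeletal muscle was present. Of 7 fibroblast, 5 endothelial and 6 smooth muscle markers tested, 0 passed in limma, with 1, 2 and 0 at an unadjusted p under 0.05. Without GATA-4 array 1, where 18.8% of all genes tested were called, Col1a1 was called higher and Emcn lower. Adipocyte markers, with Adipoq, Plin1 and Lep below the filter, summed to 2443 to 2936 on GATA-4 arrays and 2611 to 3635 on LacZ arrays, and red cell markers to 3201 to 6956 on GATA-4 arrays and 3541 to 5352 on LacZ arrays. No matched marker was at the floor on all 10 arrays. In pieces of ventricle, more cells of a type and more RNA per cell cannot be told apart.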

How the data were processed

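Intensity values were deposited by the authors as 1 linear signal per probe set and array, made with GCOS per the submitters' processing notes; not given in the sources used here are its version, algorithm and scaling. Depth has no meaning for arrays, and the 10 arrays limit the precision. From these values, control probe sets were set aside, log2 values were quantile normalized, and normalized values below 0 were then set to 0. Probe sets with a mean above the 40th percentile (18625) were tested with limma 3.58.1 in R 4.3.3 (lmFit, eBayes with an intensity trend, GATA-4 minus LacZ), with Benjamini-Hochberg adjustment over all of them. Each gene was read from its brightest probe set with 1 gene symbol; 20826 probe sets had 1, 436 several and 9780 none. Pairs of genes were compared by exact permutation. The limma fit and the permutation test were tested on simulated data. Values without GATA-4 array 1 given with single genes keep the normalization of all 10 arrays, and the other fits with an array left out were normalized again. All listed genes are named, and from each neighbouring list up to 3 called genes with the smallest p. The listed genes, the neighbouring and marker lists and the pairs were chosen with earlier results of these data known. Alternatives covered normalization, an added constant, the filter, the variance model, the probe set per gene and left-out arrays.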

Additional observations from a re-analysis of the deposited data

Results flagged for a closer look

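The 5 values of each group were screened for a single array far from the other 4, in 84 groups of listed genes and pairs, where chance marks about 1 in 20. It marked 6, of which 4 lie on GATA-4 array 1, the dim array. Pfkl read 9.13 there, against 8.25 to 8.48 on GATA-4 arrays 2 to 5. Pgam2 read 12.16, against 11.47 to 11.57. Pdha1 read 12.70, against 12.82 to 12.86, and Pfkfb2 read 7.07, against 7.67 to 7.88. Gpd1 read 11.48 on GATA-4 array 3, against 11.12 to 11.15 on the 4 remaining arrays of its group, all of which lie on the same side of the LacZ arrays. Pdha1 read 12.96 on LacZ array 4, against 12.97 on the other 4, a gap that is small beside its difference between groups.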

How the results depend on the processing

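The count of listed genes called (9) was 1 with the signals as deposited, 3 without the filter on low signal, 3 without limma's intensity trend, 15 with array weights and 2 without GATA-4 arrays 4 and 5, and it ran from 2 to 16 with 1 array left out. The share of all genes called, 6.37%, moved with it, to 0.0655%, 3.07%, 3.24%, 18.7% and 1.38% in those settings, and from 1.13% to 18.8% with 1 array left out. The count of neighbouring genes (9) was 0 in limma with the signals as deposited (3 at an unadjusted p under 0.05), 5 without the filter, 2 without the trend, 20 with array weights and 3 without GATA-4 arrays 4 and 5, and it ran from 1 to 21. The count of pairs (9) was 5 with the mean over a gene's probe sets and 5 without GATA-4 arrays 4 and 5, and it ran from 9 to 9. The lowest counts with 1 array left out came without LacZ array 1, 3 or 4 for the listed genes and without LacZ array 3 for the neighbouring genes, and the highest without GATA-4 array 1. The cause of these shifts was not tested, and some of these settings also differ in the number of arrays or of probe sets tested. Of all genes called, 58.3% were higher, and 45.3% with median centring. Over 51 single results, 939 alternative values held 752 with the same direction and call, 162 that lost the call, 15 that gained it and 10 with the opposite sign, none of them called. Those 10 were Ldha at -0.0378 with the signals as deposited and -0.0403 with median centring, Pfkfb3 at -0.1723 with the mean over probe sets and -0.0485 without GATA-4 arrays 4 and 5, and 6 values with 1 array left out. These were Pfkfb3 without GATA-4 array 3 or 4 or LacZ array 4 (range over such fits -0.067 to 0.1443, with -0.0306 and -0.01 between), Gpi without GATA-4 array 1 (-0.0403 to 0.1584), Slc16a1 without LacZ array 2 (-0.0397 to 0.0043) and the pair Pdk1 and Pdk2 without GATA-4 array 1 (-0.1996 to 0.0171). No paired analysis was possible because the labels give no animal, batch or number shared between the groups.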
